A study of Mus musculus with 778 samples.

Results

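The genes described here had a relative transcript level at least 2-fold lower in fully-grown mouse oocytes than in late growing ones. Oocytes grow inside the follicle over several weeks, transcribe and store the mRNAs that the egg and early embryo will use, and stop transcribing when they reach full size. Stored transcripts are usually stable during growth, and large-scale degradation of maternal mRNA is known mainly from meiotic maturation and after fertilization.

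The genes were chosen by their measured levels in single-cell RNA-seq, in which every cDNA molecule carries a unique molecular identifier (UMI), so that amplified copies of one molecule are counted once. For each stage, the UMIs of a gene in all cells were added up and expressed per 1000000 UMIs of that stage (CPM). A gene was taken when it had at least 10 CPM in GO3, was at least 2-fold lower in FGO than in GO3, and was less than 2-fold lower in GO2 than in GO1. Of 23201 genes in the table, 7177 had at least 10 CPM in GO3, and 268 of these met all 3 conditions.

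The study picked single oocytes by hand from ICR mice and staged them by diameter. Non-growing oocytes (NGO, under 20 μm) came from mice 3 to 4 days old. Growing oocytes of 30 to 45 μm (GO1), 50 to 55 μm (GO2) and 60 to 65 μm (GO3) and fully-grown oocytes (FGO, over 70 μm) came from mice 3 to 4 weeks old, so any comparison with NGO is also a comparison of mouse age. The table held 46 NGO, 51 GO1, 26 GO2, 44 GO3 and 56 FGO cells, with 25198132, 26752883, 24976634, 49822036 and 64311908 UMIs, respectively. The cells came from 4 libraries, which their titles call batches. The columns name only the stage of a cell, so each stage was 1 pooled sample without replicates and no stage difference could be tested. Differences between stages and between batches could not be told apart. Intervals given below are exact 95% intervals and cover counting error only. CPM is a share of all UMIs of a stage, so less mRNA of a gene and more mRNA of other genes cannot be told apart. The 12 oocyte markers, among them *Gdf9*, *Zp3* and *Ddx4*, were all above 10 CPM in every stage, and none of them was among the 268 genes.

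Together, the 268 genes took up 0.321% of the UMIs of NGO, 1.98% and 2.01% of those of GO1 and GO2, 1.61% of those of GO3 and 0.630% of those of FGO. Their common course was a plateau in GO1 and GO2 and a lower level in GO3, between low ends in NGO and FGO. The choice of genes set the fall to FGO and limited that from GO1 to GO2. The median gene went from 5.0004 CPM in NGO to 36.8 and 37.2 CPM in GO1 and GO2, and then to 27.3 CPM in GO3 and 9.53 CPM in FGO. The other 6909 genes with at least 10 CPM in GO3 stayed between a median of 44.04 CPM in GO2 and 54.2 CPM in NGO. The 10 genes with the highest GO3 level carried 26.04% of the summed level in GO3 and 28.3% in FGO.

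**Figure D1:**
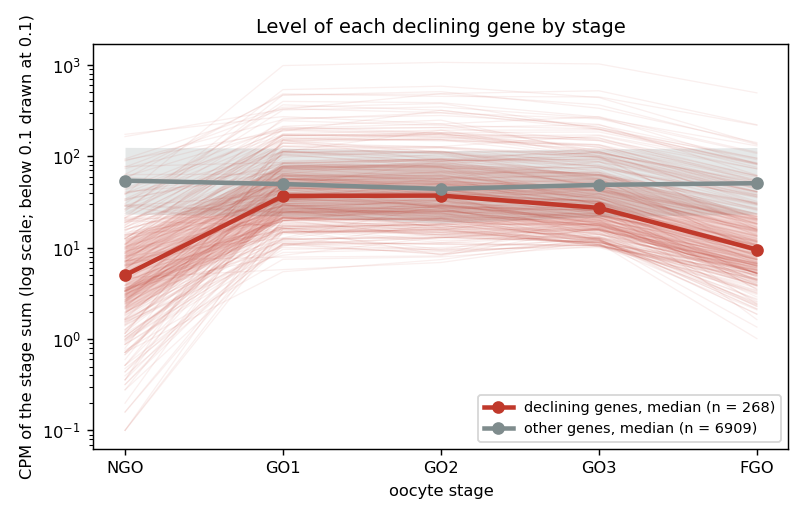
CPM of the stage sums (log scale) of each of the 268 declining genes (thin lines) in the 5 stages, with the median and the interquartile range of these genes and of the 6909 other genes with at least 10 CPM in GO3. The median of the declining genes goes from 5.0004 CPM in NGO to 36.8 in GO1 and from 27.3 in GO3 to 9.53 in FGO, while that of the other genes stays between 44.04 and 54.2 CPM.

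Single cells are the parts of the sums that chose the genes, so they show the spread behind the choice and give it no support. The share of UMIs from the 268 genes had its lowest, median and highest cell at 0.164%, 0.321% and 0.563% in NGO. In GO1 these were 0.909%, 2.04% and 2.51%, and in GO2 they were 1.71%, 2.01% and 2.38%. In GO3 they were 0.898%, 1.63% and 2.09%, and in FGO 0.152%, 0.470% and 1.15%. Of the 56 FGO cells, 52 lay below the lowest GO3 cell, and 5 of the 44 GO3 cells lay below the highest FGO cell. Before that, 26 of the 44 GO3 cells were already below the lowest of the 26 GO2 cells. The FGO cells overlapped the NGO cells, since 34 of the 56 FGO cells were below the highest NGO cell.

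**Figure D2:**
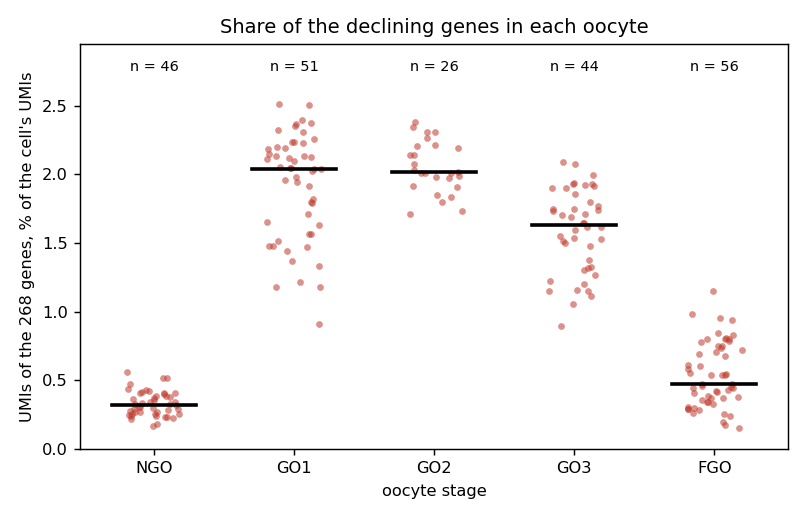
Share of a cell's UMIs that came from the 268 declining genes, in percent, for each oocyte of the 5 stages (points) with the median of the stage (line). Of the 56 FGO cells, 52 lie below the lowest GO3 cell at 0.898%, and FGO cells spread from 0.152% to 1.15%.

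Within a stage, the cells differed in these genes as a whole. When the genes were split by alternate places in the alphabet into 2 groups of equal size, the shares of both groups across the 56 FGO cells had a Spearman correlation of 0.97, against 0.89 over the 51 GO1 cells, 0.79 in NGO, 0.77 in GO3 and 0.68 in GO2. These cells share libraries and differ in depth, and the share itself had a Spearman correlation with UMIs per cell of 0.40 in GO1, 0.37 in FGO, 0.11 in GO3, -0.19 in NGO and -0.20 in GO2. The genes were chosen for a shared course in these cells, and no other set of genes was compared, so the correlations are not shown to be particular to them. The part of depth in this spread was not tested. With every cell thinned to 20000 UMIs, which left out no cell, the median NGO cell had a UMI of 14.7% of the 268 genes. The median was 50.4% and 55.04% in GO1 and GO2, 47.8% in GO3 and 21.5% in FGO. Without thinning, the median cell had a UMI of 166 of the genes in NGO, 206 and 266.5 in GO1 and GO2, 267 in GO3 and 213 in FGO.

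The drop between GO3 and FGO chose the genes and is given as a description. Of the 7177 genes, 270 (3.76%) were at least 2-fold lower in FGO, and 268 of them also met the condition on GO2. The median log2 ratio of FGO over GO3 was -1.38 for the 268 genes and 0.04 for all 7177. At least 4-fold differences were found for 49 genes and at least 8-fold differences for 6, while 45.5% of the genes lay between 2-fold and 2.5-fold. In the same cells, and so as a restatement of the choice, the upper quartile of the FGO cells lay below the lower quartile of the GO3 cells for 235 of the 268 genes (87.7%), against 7.94% of all 7177 genes.

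Genes on both sides of the limits were close to each other. Just inside the 2-fold limit, *Gbp7* had 43.6 CPM in GO3 and 21.7 in FGO, *Chl1* 11.4 and 5.68 CPM and *Ramp3* 10.4 and 5.18 CPM. Just outside it, *Umodl1* had 2549.6 and 1275 CPM, *Tnfsf11* 31.5 and 15.8 CPM and *Abhd18* 16.8 and 8.38 CPM. *Umodl1* thus had a higher GO3 level than any of the 268 genes and missed the limit narrowly. At the 10 CPM limit, *Lbp* (10.04 CPM), *Trip10* (10.2 CPM) and *Ramp3* were inside in GO3, and *Igfbp7* (9.96 CPM), *Piwil1* (9.88 CPM) and *Fam124b* (9.84 CPM) were outside. The third condition left out 2 genes. *Ccl2*, which encodes a chemokine, had 43.02 CPM in GO1 and 20.3 in GO2, then 45.8 CPM in GO3 and 9.07 in FGO. *Gcnt4* had 31.2 CPM in GO1 and 15.1 in GO2, then 12.1 CPM in GO3 and 4.98 in FGO. Nearest to this limit on the inside were *Gm15107*, *BC048602* and *Caln1*, the last with 29.5 CPM in GO1 and 16.4 in GO2.

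The steepest difference was that of *Nmu* (NCBIM37 chr5:76762520-76792813, minus strand), which encodes the neuropeptide neuromedin U. Here and below, 5 values in a row are the CPM of the stage sums from NGO to FGO. *Nmu* had 2.58, 51.8, 50.6, 30.5 and 1.63 CPM. The GO3 cells had a lowest, median and highest value of 0, 25.1 and 76.1 CPM and the FGO cells of 0, 0.708 and 23.5 CPM. No UMI of *Nmu* was found in 25 of 56 FGO cells, against 2 of 44 GO3 cells, and the ratio of GO3 to FGO was 18.7 (15.3 to 23.03).

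*Cmtm8* (chr9:114698463-114753270, minus strand), a gene for a MARVEL-domain membrane protein, followed with 0.516, 55.7, 67.4, 31.9 and 2.43 CPM. Its GO3 cells lay at 1.57, 27.8 and 85.97 CPM (lowest, median, highest) and its FGO cells at 0, 0.989 and 9.36 CPM. Both ranges overlapped, but the FGO maximum was under the GO3 median, and the ratio was 13.2 (11.2 to 15.6). *Ugt2b38* (chr5:87838967-87853228, minus strand), of the UDP-glucuronosyltransferase family, had 0.357, 19.8, 20.6, 11.2 and 1.01 CPM and a ratio of 11.1 (8.57 to 14.6). Its family has close relatives, and reads could have been split between them.

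*Trps1* (chr15:50486307-50721587, minus strand), a GATA-type zinc finger repressor, had 61.8 CPM in GO1 and 32.4 CPM in GO3 and 3.47 in FGO, a ratio of 9.34 (8.12 to 10.8). *Etl4* and *Mei4* closed the group of at least 8-fold differences, with ratios of 8.95 (7.14 to 11.3) and 8.34 (7.25 to 9.64). Among the next genes by ratio were *Cd69* (7.76), *Fam162b* (7.64), *Nlrc4* (6.91), the ETS factor gene *Etv1* (6.90), the RNA-binding protein gene *Msi2* (6.67), *Rgn* (6.50), which encodes a calcium-binding protein, and the zinc finger gene *Glis3* (6.32). They were followed by the co-chaperone gene *Dnajc5b* (6.18), *Tekt4* (6.03), *A630095E13Rik* (5.87), *Sptssb* (5.84), the metalloprotease gene *Adamts18* (5.83), *Tuba3b* (5.76) and the serotonin receptor gene *Htr5a* (5.73). In *Fam162b* the separation of single cells was wide, with 5.02, 61.5 and 181 CPM as the lowest, median and highest GO3 cell and 0, 3.50 and 25.6 CPM in FGO. The highest FGO cell of *Dnajc5b* was at 100.3 CPM, the highest GO3 cell at 45.8 CPM and the median FGO cell at 1.15 CPM.

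**Figure D3:**
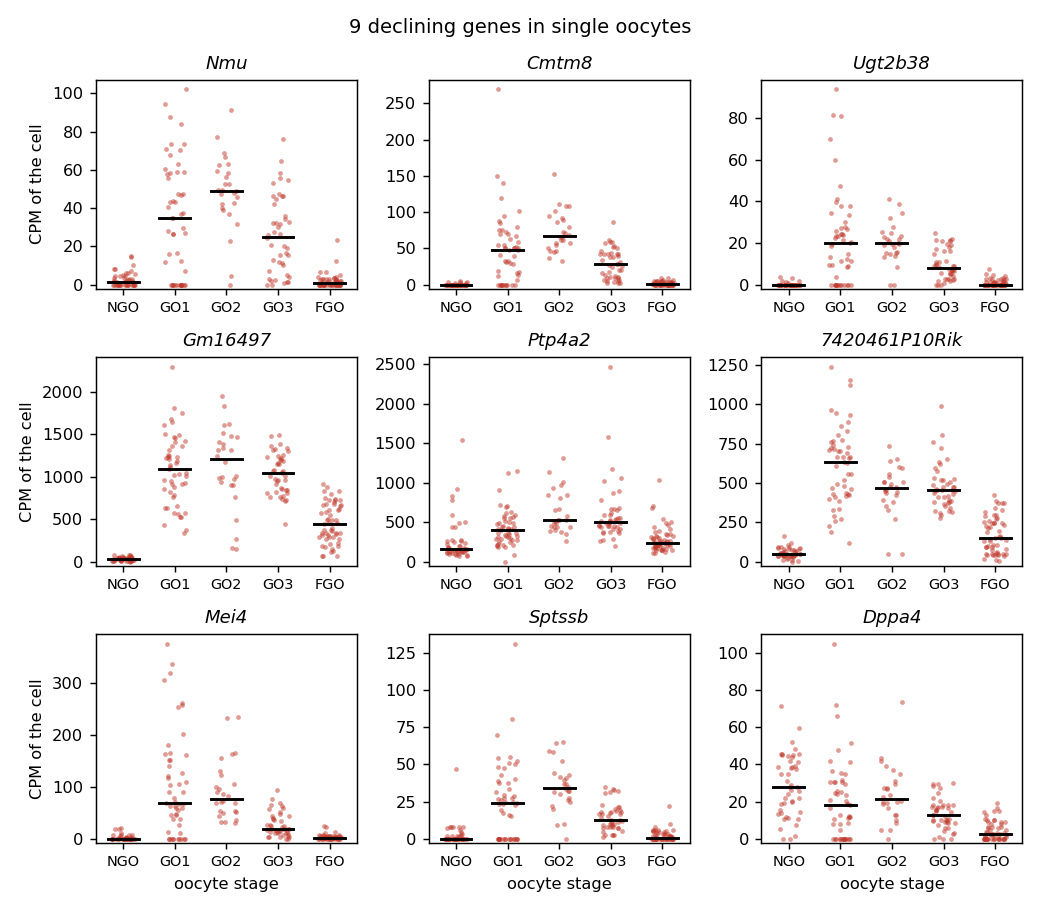
CPM of single oocytes (points) and the stage median (line) for 9 declining genes in the 5 stages, namely the 3 with the steepest difference, the 3 with the highest GO3 level, and *Mei4*, *Sptssb* and *Dppa4*. In *Nmu* the GO3 median is 25.1 CPM and the FGO median 0.708 CPM, whereas *Dppa4* starts at its highest stage level in NGO.

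The genes with the highest levels in GO3 had smaller differences. *Gm16497*, a locus with a provisional name, had 38.1, 986, 1068, 1027 and 495 CPM. Its GO3 cells lay at 446, 1047 and 1484 CPM and its FGO cells at 62.4, 445 and 918 CPM, and the ratio was 2.07 (2.04 to 2.10). *Ptp4a2* (chr4:129488463-129527247, plus strand), a protein tyrosine phosphatase gene, had 164, 327, 487, 522 and 222 CPM and was among the 44 genes with their highest level in GO3. *Ehf* (chr2:103103590-103143435, minus strand), which encodes an epithelial ETS factor, had 25.04, 538, 586, 440.4 and 137.4 CPM, a ratio of 3.21 (3.13 to 3.29). Its GO3 cells were narrowly spread, at 257, 442 and 572 CPM, while the FGO cells lay at 0, 57.95 and 379 CPM. *7420461P10Rik*, *AA545190*, *Fam13c*, *Mrap*, *Gnrh1*, *Fnbp4* and *Mrps31* were the other 7 of the 10, with ratios between 2.01 for *Fnbp4* and 3.26 for *Gnrh1*. *Mrap* encodes the accessory protein of the melanocortin 2 receptor and had 73.5 CPM in NGO and 272 CPM in GO3 and 110.8 in FGO.

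NGO did not enter the choice of genes, and GO1 entered it only through the condition on GO2. From NGO to GO1, 243 of the 268 genes (90.7%) were at least 2-fold higher with 10 CPM or more in GO1, against 21.7% of all 7177 genes. The median log2 ratio of GO1 over NGO was 3.11, or 8.65-fold, against 0.03 for all 7177 genes. For the 184 genes that went the opposite way at the end of growth, at least 2-fold up from GO3 to FGO with at least 10 CPM in FGO, the same median was -2.60. Only 76 of these 184 had at least 10 CPM in GO3 and so belonged to the 7177. They were chosen for a GO3 level below that of FGO, so a part of this median can follow from their choice. In NGO, 188 of the 268 genes were under 10 CPM and 38 under 1 CPM. The lowest stage was NGO for 223 genes, FGO for 44 and GO1 for 1, *Dhrs3*. Over all 7177 genes, NGO was the lowest stage for 40.7%, against 83.2% of the 268, and FGO for 6.88%, against 16.4%. The choice of genes put GO3 above FGO, so GO3 could not be their lowest stage, as it was for 9.66% of all 7177. A part of the higher shares of NGO and FGO thus follows from the choice.

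**Figure D4:**
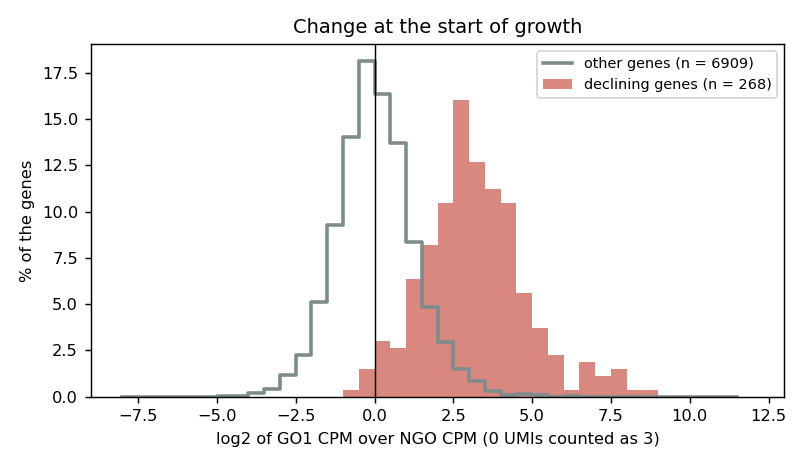
Distribution of the log2 ratio of GO1 over NGO for the 268 declining genes (bars) and the 6909 other genes with at least 10 CPM in GO3 (line), as percent of the genes in bins of 0.5. The declining genes centre on 3.11 and 5 of them lie below 0, while all 7177 genes have a median of 0.03.

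In GO3, which the choice of genes did use, 241 genes (89.9%) were at least 2-fold higher than in NGO, against 19.8% of all 7177, and 2 were at least 2-fold lower, against 16.3%. The largest ratios of GO3 to NGO were those of *Tex26*, *1700019D03Rik*, *Magea10*, *Adamts18* and *Olfr288*. *Tex26* had 9 UMIs in NGO and 6554 in GO3, a ratio of 368 (194 to 806). *Adamts18* had 2 UMIs in NGO, and its ratio was 156.5 (43.2 to 1295). At the other end, *Dppa4* had 29.7 CPM in NGO and 13.9 CPM in GO3 and 6.78 in FGO, and *Dlg2*, a synaptic scaffold gene, had 28.5 CPM in NGO and 14.01 CPM in GO3 and 6.52 in FGO. *Fetub* (77.6 CPM in NGO and 45.7 in GO3), *Tceal8* (174 and 114.1 CPM) and *Btk* (28.7 and 20.2 CPM) were the other 3 of the 5 lowest, so these genes did not share the low NGO level.

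Between GO1 and GO2 the median log2 ratio was 0.00, and 1 gene, *Calr3*, which encodes a chaperone of the endoplasmic reticulum known from the testis, was at least 2-fold higher in GO2, against 0.0697% of all 7177. *Calr3* had 8.10, 12.8, 29.1, 19.2 and 7.34 CPM. None was at least 2-fold lower in GO2, which the choice of genes fixes, against 2.13% of all 7177. From GO2 to GO3 the median log2 ratio was -0.32, against 0.09 for all genes, and 209 of the 268 genes (77.99%) were lower in GO3, against 37.1% of all 7177. At the 2-fold limit, 14 were lower in GO3 (5.22%, against 0.474% of all 7177) and 2 were higher (against 3.41%), *Mov10*, an RNA helicase gene with 7.22, 7.89, 8.13, 16.7 and 8.30 CPM, and *Gm15107*. The highest stage was GO1 for 42.9% of the genes and GO2 for 39.2%, while 44 genes had it in GO3 and 4 (*Dlg2*, *Btk*, *Dppa4* and *Plekhb2*) in NGO. Over all 7177 genes it was GO1 for 25.3%, GO2 for 10.5%, GO3 for 11.3% and NGO for 39.8%, so the share with the highest level in GO3 (16.4% of the 268) was near that of all genes. GO2 and GO3 both entered the choice of genes, so a part of this step follows from it.

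In FGO most of the genes had not come down to their NGO level. The FGO level was above the NGO level for 223 of the 268 genes, with a median log2 ratio of 1.19, against 52.2% of all 7177 genes and a median of 0.04. At the 2-fold limit, 82 genes were higher in FGO than in NGO (30.6%, against 12.5% of all 7177) and 14 were lower (against 8.95%). In FGO, 52.99% of the genes were under 10 CPM. *Mei4* was close to its NGO level, with 2.70 CPM in NGO and 3.51 in FGO, while *Tex26* had 48.4 CPM in FGO against 0.357 in NGO.

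Of 36 lists of genes by function, 14 held at least 1 of the 268 genes, and 250 of the 268 (93.3%) were in no list, against 84.4% of all 7177. The share of declining genes was highest in the lists of cyclic AMP and meiotic arrest (1 of 9, *Prkar2a*), the Wnt pathway (1 of 11), DNA methylation (1 of 12, *Dnmt3l*) and MAPK feedback (1 of 12), each by a single gene. None of the 84 cytoplasmic ribosomal protein genes, 36 proteasome genes, 55 translation factors, 71 genes of RNA polymerase II and general transcription factors, 16 genes of the subcortical maternal complex and Nlrp list or 11 zona pellucida and oocyte-secreted factors with at least 10 CPM in GO3 was among them. The median log2 ratio of FGO over GO3 in these lists lay between -0.16 for the zona pellucida and secreted factors and 0.19 for the ribosomal proteins. The members found in lists were mostly single, such as *Mrps31* among 76 mitochondrial ribosomal protein genes, *Cox6a2* among 93 respiratory chain genes and *Zfp616* among the Zfp genes. Of all 7177 genes, 3.73% were declining genes. The solute carriers, near that share, held 3 of 88 (*Slc9b1*, *Slc25a13* and *Slc41a2*), and the F-box genes (*Fbxl17*, *Fbxw4*) and the ubiquitin-conjugating enzymes (*Ube2u*, *Ube2l6*) held 2 each, of 49 and 27. *Lef1* of the Wnt list, *Spry4*, a feedback inhibitor of MAPK signalling, *Kif5c* of the kinesins, *Hnrnpa1* of the splicing factors and *Cldn34b2* of the junction genes were the only ones of their lists. *Spry4* had 158.5 CPM in GO3 and 53.8 in FGO, and *Lef1* had 36.4 and 16.1 CPM.

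Several of the genes act in a complex or pathway with other parts that were less than 2-fold lower in FGO. These groups, and those by role below, were picked after the values had been seen. *Mei4* (chr9:81757277-82099614, plus strand) encodes a protein that meiotic cells need to make DNA double-strand breaks, which in the mouse happens in the fetal ovary. It had 2.70, 74.1, 76.4, 29.3 and 3.51 CPM, with GO3 cells at 0, 18.5 and 93.5 CPM and FGO cells at 0, 1.95 and 24.5 CPM. *Ccdc36* (chr9:108305973-108330815, minus strand), whose product works with it, had 15.6, 52.3, 59.8, 23.002 and 9.66 CPM. *Rec114*, of the same machinery, had 54.1 CPM in GO3 and 52.4 in FGO, a ratio of 1.03 (0.982 to 1.09), and *Hormad1* had 30.95 and 27.6 CPM. *Spo11*, which encodes the enzyme that cuts the DNA, had at most 0.119 CPM in any stage.

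Serine palmitoyltransferase makes the first step of sphingolipid synthesis and joins a pair of large subunits with a small one. *Sptssb*, for a small subunit, had 1.79, 32.2, 36.1, 16.9 and 2.89 CPM, with GO3 cells at 1.27, 12.8 and 34.8 CPM and FGO cells at 0, 0.829 and 21.97 CPM. The large subunit gene *Sptlc2* (chr12:88646008-88729305, minus strand) had 39.2, 192, 174, 149.1 and 52.8 CPM, a ratio of 2.82 (2.71 to 2.94). Its GO3 cells lay at 62.8, 156.4 and 222 CPM and its FGO cells at 4.42, 37.6 and 109.7 CPM. The obligate partner *Sptlc1* had 34.1 CPM in GO3 and 38.1 in FGO, and the other small subunit gene *Sptssa* had 32.7 and 39.5 CPM. *Sptlc3*, for another large subunit, had 9.43 and 4.87 CPM, a ratio of 1.94 (1.68 to 2.24), and 7.76 and 3.74 CPM as the mean over cells, which is past the 2-fold limit. As the mean over cells, *Sptlc1* had 33.1 CPM in GO3 and 33.6 in FGO and *Sptssa* 36.4 and 34.7 CPM, so the direction of *Sptssa* depended on the weight of cells.

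*Dnmt3l* encodes the cofactor of de novo DNA methylation, which is laid down in growing oocytes. It had 111.4 CPM in GO3 and 51.5 in FGO, a ratio of 2.16 (2.07 to 2.26), with GO3 cells at 23.5, 94.2 and 176 CPM and FGO cells at 0, 17.8 and 121.1 CPM. The enzyme gene *Dnmt3a* had 181 and 229 CPM and *Dnmt1* 865 and 1309 CPM. *Dppa2* (chr16:48310590-48319836, plus strand) and *Dppa4* (chr16:48283848-48294405, plus strand), 16.2 kb apart, encode partner proteins of early embryonic and pluripotent cells. *Dppa2* had 59.6, 201, 207, 221 and 95.3 CPM and *Dppa4* 29.7, 24.6, 24.02, 13.9 and 6.78 CPM, so they shared the difference between GO3 and FGO and not the course before it. *Dppa3*, which protects the maternal genome in the zygote, had 4707 CPM in GO3 and 6261 in FGO.

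Among genes of hormone and growth factor signalling, 8 encode secreted peptides or growth factors and 8 encode receptors for secreted factors. Both groups were picked by hand, and no share among all 7177 genes was counted. *Gnrh1* (chr14:68363286-68367492, plus strand), the gene for gonadotropin-releasing hormone, had 26.5, 399, 387, 269 and 82.6 CPM. Its GO3 cells lay at 65.6, 264 and 679 CPM and its FGO cells at 5.39, 50.1 and 270.2 CPM. The receptor gene *Gnrhr* was at 1.68 CPM or less in every stage, and the neuromedin U receptor genes *Nmur1* and *Nmur2* had 0 UMIs in all 5 stages, which allows up to 3 UMIs of each in a stage. The tachykinin genes *Tac2* (101.6 CPM in GO3 and 41.2 in FGO) and *Tac1* (14.1 and 5.33 CPM) and the interleukin gene *Il17f* (112.1 and 45.4 CPM) were also in the group. *Bmp5* had 119.1 and 47.3 CPM, whereas the oocyte factor *Gdf9* had 4970.5 and 5681 CPM and *Bmp15* 598 and 535 CPM.

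Of the receptors, *Egfr* (chr11:16652206-16818161, plus strand) had 6.98, 68.5, 52.5, 35.1 and 10.5 CPM and a ratio of 3.35 (3.06 to 3.67). The genes of its relatives *Erbb2*, *Erbb3* and *Erbb4* were at 0.262 CPM or less in all stages. *Musk*, a receptor kinase known from the neuromuscular junction, had 91.3, 189, 319, 207 and 92.2 CPM, while its partner genes *Lrp4* and *Dok7* were at 0.240 CPM or less. *Esr2* (chr12:77221406-77278246, minus strand), the gene for oestrogen receptor beta, was not counted among the 8 receptors for secreted factors. It had 12.6, 168, 182, 185 and 83.4 CPM, and *Esr1*, for oestrogen receptor alpha, had 15.1 CPM in GO3 and 12.8 in FGO. *Prkar2a*, for a regulatory subunit of protein kinase A, the kinase through which cyclic AMP holds meiotic arrest, had 27.4 and 11.6 CPM. Other subunit genes of that kinase were not among the declining genes, with *Prkar1a* at 140.3 and 143.9 CPM and *Prkaca* at 21.3 and 20.2 CPM. The B-type cyclin gene *Ccnb3* had 16.3 and 5.26 CPM, a ratio of 3.10, against 1.32 for *Ccnb1* and 1.35 for *Ccnb2*.

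The retinoic acid genes were also split. *Aldh1a2*, for an enzyme that makes retinoic acid, had 5.95, 44.6, 44.9, 31.7 and 13.5 CPM, and *Dhrs3*, for a reductase that lowers its precursor, had 58.97, 46.6, 88.04, 123.3 and 55.8 CPM. Both were at least 2-fold lower in FGO, and the highest GO3 cell of *Dhrs3* was at 714 CPM against a median of 106.4 CPM. The retinol dehydrogenase genes *Rdh10* and *Rdh11* had ratios of 1.07 and 1.29. Under the 10 CPM limit in GO3, the receptor gene *Rara* was higher in FGO, with 6.74 and 16.5 CPM. There, *Rarb* (1.10 and 0.327 CPM) and *Aldh1a3* (0.361 and 0.109 CPM) had ratios of 3.38 (2.01 to 5.89) and 3.32 (1.32 to 9.40). *Aldh1a1*, *Rarg* and *Cyp26a1* also had a higher value in FGO, at 0.311 CPM or less in GO3 and FGO. The difference was within counting error for *Aldh1a1* and *Rarg*, and *Cyp26a1* had 1 UMI in GO3 and 10 in FGO. Of the actin nucleators that position the meiotic spindle, *Spire1* had 21.3, 150.8, 111.9, 77.4 and 35.4 CPM and a ratio of 2.19 (2.08 to 2.31), while *Fmn2*, its partner, had 35.2 CPM in GO3 and 22.9 in FGO, a ratio of 1.54 (1.43 to 1.65). *Cobl*, another actin nucleator gene, had 10.7 and 4.45 CPM.

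The channels and transporters numbered 11, picked by hand and with no share among all 7177 genes counted. Their median log2 ratio of FGO over GO3, which chose them, was -1.59. All 11 were at least 2-fold higher in GO3 than in NGO, as were 89.9% of all 268 and 19.8% of all 7177. *Aqp9*, for a channel of water and glycerol, had 0.159, 19.8, 21.4, 13.3 and 3.17 CPM, and *Kcnn2*, for a calcium-activated potassium channel, had 5.28, 61.5, 61.9, 42.6 and 15.3 CPM. *Slc25a13*, for a mitochondrial aspartate and glutamate carrier, had 5.04, 33.7, 40.7, 30.4 and 8.10 CPM. The 4 receptor-type tyrosine phosphatase genes *Ptprb*, *Ptpre*, *Ptprg* and *Ptprr* were also picked by hand, with no such share counted. Their median log2 ratio of FGO over GO3, which chose them, was -1.50, with the steepest at -2.04 and the flattest at -1.07.

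A further 24 of the genes, likewise picked by hand and with no share among all 7177 counted, encode DNA-binding factors and chromatin proteins. Their median log2 ratio of FGO over GO3, which chose them, was -1.29. Beside *Trps1*, *Etv1*, *Glis3* and *Ehf* they included *Gata3*, with 2.26, 46.3, 37.1, 32.2 and 8.83 CPM, *Satb1*, with 63.4 CPM in GO3 and 31.01 in FGO, and *Dmrtb1*, a germ cell factor, with 24.7 and 7.35 CPM. The median of these 24 genes was 9.72 CPM in NGO, 58.4 in GO1, 34.5 in GO3 and 10.7 in FGO. The cilium, tubulin and muscle filament genes numbered 13, also picked by hand and with no such share counted. Their median log2 ratio of FGO over GO3, which chose them, was -1.73. *Tekt4*, for a tektin of the sperm flagellum, had 5.79, 97.9, 114.5, 57.2 and 9.49 CPM. The alpha-tubulin genes *Tuba3a* (107.9 CPM in GO3 and 32.1 in FGO) and *Tuba3b* (29.99 and 5.21 CPM) have near-identical sequences, so the split of counts between them is uncertain.

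Genes best known from immune cells numbered 19, a group picked by hand for which no share among all 7177 genes was counted. Their median log2 ratio of FGO over GO3, which chose them, was -1.78. *Cd69*, an activation marker of lymphocytes (chr6:129217342-129225387, minus strand), had 0.675, 30.2, 33.6, 20.03 and 2.58 CPM. *Ms4a1*, the gene for CD20 of B cells, had 10.99, 102.7, 82.6, 48.4 and 9.56 CPM, with GO3 cells at 2.73, 40.2 and 87.6 CPM and FGO cells at 0, 2.80 and 60.4 CPM. *Nlrc4* (chr17:74825635-74858448, minus strand), of the inflammasome, had 1.63, 24.4, 35.9, 15.7 and 2.27 CPM. *Cd226*, *Cd200*, *Cd160*, *Cd96* and *Cd209g* were the other genes with the Cd prefix, with ratios from 2.02 for *Cd96* to 4.93 for *Cd226*. The defining genes of blood cells were absent or nearly so. *Ptprc*, which all leukocytes express, had 2 UMIs in GO3 and 0 in the others, and *Cd74*, *C1qa*, *Hba-a1* and *Hbb-b1* had 0 UMIs in every stage. Of the 8 blood and immune markers, none reached 10 CPM in GO3, and the most abundant, *Cd68*, had 1.65 CPM in GO3 and 1.63 in FGO. *Cd3e*, *Cd79a* and *Cd79b* had 0.0794 CPM or less in every stage.

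Most markers of other ovarian cells were low as well. Of the 15 granulosa markers, 2 reached 10 CPM in GO3, *Serpine2* with 399 CPM in GO3 and 493 in FGO and *Nr5a2* with 12.04 and 7.84 CPM. The defining granulosa genes *Amh* and *Foxl2* had 0.0201 and 0.141 CPM in GO3. *Cyp19a1*, the gene for aromatase, was under the 10 CPM limit in GO3 but had a course like that of the declining genes, with 1.11, 16.3, 13.3, 6.70 and 1.54 CPM and a ratio of GO3 to FGO of 4.35 (3.47 to 5.51). The ratio was 2.01 (1.70 to 2.39) for *Kitl* (7.11 and 3.53 CPM), 1.82 (1.498 to 2.22) for *Fshr* (5.02 and 2.752 CPM) and 1.54 (1.36 to 1.73) for *Nr5a2*. *Gja1*, *Hsd17b1* and *Fst* had ratios of 2.92, 3.30 and 2.501 at 1.12 CPM or less in every stage. Others of the list were higher in FGO, with *Inha* at 3.59 and 3.95 CPM, *Amhr2* at 0.0803 and 0.311 CPM, *Foxl2* at 0.141 and 0.233 CPM, *Inhba* at 0.181 and 0.233 CPM and *Krt18* at 0 and 0.202 CPM, a difference within counting error for *Inha*, *Foxl2* and *Inhba*. The part of granulosa RNA in the difference between GO3 and FGO was not tested. None of the 9 stroma and theca markers reached 10 CPM, and the most abundant, *Acta2*, had 3.49 CPM in GO3 and 5.68 in FGO. Of the 4 endothelial markers, *Pecam1* had 48.8 CPM in GO3 and 26.7 in FGO, *Tek* had 1.89 and 1.93 CPM, *Kdr* had 0.562 and 0.155 CPM with a ratio of 3.61 (1.70 to 8.34), and *Cdh5* had at most 0.0201 CPM in any stage. Summed over each list, the granulosa markers had 436 CPM in GO3 and 514 in FGO, of which *Serpine2* alone made up 399 and 493 CPM. Those of stroma and theca had 4.88 and 7.26 CPM, those of blood and immune cells 1.71 and 1.65 CPM, and those of endothelium 51.2 and 28.8 CPM.

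The declining genes differed from the others in their promoters, which the choice of genes did not use. In mammals, genes with many CpG dinucleotides at the start are mostly active in many tissues, and genes with few are more often tissue-restricted. From the NCBIM37 genome and its annotation, a promoter of 250 bases before to 50 after the 5′ end of the gene model was read for 230 of the 268 genes (85.8%) and 6201 of the 6909 other genes (89.8%). A CpG-poor promoter had a ratio of observed to expected CpG under 0.4. It was found for 95 of the 230 genes (41.3%), against 13.6% of the other genes and 40.9% of all 22380 protein-coding genes of the annotation. The median number of CpG was 9 in the declining genes and 21 in the others.

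The difference was also seen between genes of like GO3 level and between genes higher in GO3 than in NGO. The size of the rise from NGO was not matched. Among genes of 10 to under 50 CPM in GO3, 44.9% of the declining genes and 14.3% of the others had a CpG-poor promoter, and among those of 50 CPM or more 33.3% and 12.8%. Among genes at least 2-fold higher in GO3 than in NGO, the shares were 40.8% and 25.4%. The letters TATAAA, searched on the strand of the gene from 40 to 16 bases before the start, were in 9 of the 230 promoters (3.91%), against 0.677% of the others and 2.37% of all protein-coding genes. The genes with them were *Cd209g*, *Cd69*, *Defb50*, *Dppa2*, *Fetub*, *Il17f*, *Krt12*, *Lgsn* and *Serpinb1c*. The letters CACGTG, which read the same on both strands, were in 7.39% of the declining and 10.6% of the other promoters. An annotated start need not be the one used in oocytes, and none of these differences was tested.

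**Figure D5:**
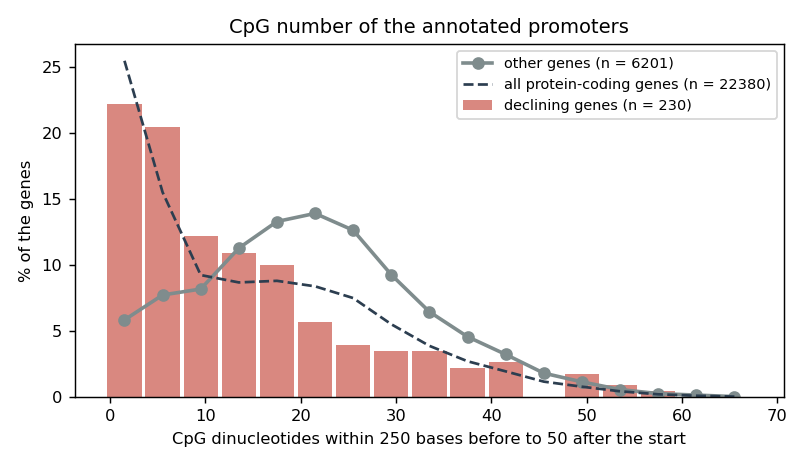
Number of CpG dinucleotides within 250 bases before to 50 after the annotated start, in bins of 4, as percent of the 230 declining genes (bars), the 6201 other genes with at least 10 CPM in GO3 (grey line) and all 22380 protein-coding genes (dashed line). Of the declining genes, 22.2% have 0 to 3 CpG, against 5.82% of the other genes and 25.4% of all protein-coding genes.

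The range can be seen in the promoters of 4 of the 20 steepest genes, the 2 with the fewest and the 2 with the most CpG among those with an entry in the RefSeq promoter table used (*Etl4*, tied with *Ugt2b38* at 1 CpG, had the smaller ratio of GO3 to FGO and is not shown). Each is shown as the 250 bases before the annotated start, 5′ to 3′ on the strand of the gene, from RefSeq on build GRCm38.p6, with CpG in capitals. These starts can differ from the NCBIM37 starts behind the counts above, where *Etl4* had 21 CpG and no promoter was read for *Glis3*. All 4 genes lie on the minus strand, *A630095E13Rik* at chr9:36638603-36638852 with 0 CpG, *Ugt2b38* at chr5:87424204-87424453 with 1, *Glis3* at chr19:28680078-28680327 with 24 and *Msi2* at chr11:88718278-88718527 with 29.
A630095E13Rik: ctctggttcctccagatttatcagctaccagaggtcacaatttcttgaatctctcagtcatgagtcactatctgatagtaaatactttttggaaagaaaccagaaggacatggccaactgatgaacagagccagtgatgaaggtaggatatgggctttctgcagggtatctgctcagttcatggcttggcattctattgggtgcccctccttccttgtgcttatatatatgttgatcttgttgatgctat
Ugt2b38: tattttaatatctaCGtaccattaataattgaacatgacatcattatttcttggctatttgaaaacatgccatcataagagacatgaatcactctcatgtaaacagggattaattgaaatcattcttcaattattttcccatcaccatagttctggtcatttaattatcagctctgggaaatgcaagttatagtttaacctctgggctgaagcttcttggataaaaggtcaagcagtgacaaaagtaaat
Glis3: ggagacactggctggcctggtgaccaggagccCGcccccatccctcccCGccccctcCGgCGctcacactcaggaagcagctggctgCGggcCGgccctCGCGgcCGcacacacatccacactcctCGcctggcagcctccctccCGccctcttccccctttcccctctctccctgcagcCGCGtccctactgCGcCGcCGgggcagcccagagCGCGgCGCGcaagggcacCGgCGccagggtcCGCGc
Msi2: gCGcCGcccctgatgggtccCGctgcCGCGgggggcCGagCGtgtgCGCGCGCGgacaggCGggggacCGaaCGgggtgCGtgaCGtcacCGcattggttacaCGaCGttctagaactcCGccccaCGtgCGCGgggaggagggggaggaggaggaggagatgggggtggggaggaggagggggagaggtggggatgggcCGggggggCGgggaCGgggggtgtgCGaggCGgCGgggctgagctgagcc

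Each of the 4 genes had a lower level in NGO and in FGO than in GO1, GO2 and GO3, and the fall from GO3 to FGO is what chose the genes. In the order NGO, GO1, GO2, GO3 and FGO, *A630095E13Rik* had 0.794, 151.7, 151.9, 97.5 and 16.6 CPM and *Ugt2b38* 0.357, 19.8, 20.6, 11.2 and 1.01 CPM. *Glis3* had 2.90, 21.1, 15.8, 11.9 and 1.88 CPM and *Msi2* 1.03, 12.4, 12.8, 12.4 and 1.87 CPM.

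Other features of the genes were also set against those of the remaining genes. The genes spanned a median of 38.7 kb of genome, against 24.1 kb for the other genes, while the longest coding transcript had a median of 2897 bases against 2834 and 8 exons against 9. Of the placed genes, 16 of 230 (6.96%) were on the X chromosome, against 2.87% of the others, and 11 (4.78%) were annotated as other than protein-coding, against 1.29%. Provisional symbols were held by 39 of the 268 genes (14.6%), against 4.57% of all 7177, among them the 11 Gm genes such as *Gm17751*, with 10.8 CPM in NGO, 224 in GO3 and 62.3 in FGO. A value for the 3′ untranslated region was had for 79.9% of the 268 genes, under the 80% that such a comparison needs, so it was void. In 15 places, neighbours along a chromosome among genes over the 10 CPM limit were both declining genes, at gaps from 0.591 to 6004 kb with a median of 320.4 kb. The next gene was thus a declining one for 6.55% of 229 declining genes, against 3.58% of all placed genes that were declining. The phosphatase genes *Ptprr* and *Ptprb* on chromosome 10 were 0.591 kb apart. *Ptprr* had 42.8 CPM in GO3 and 20.4 in FGO, and *Ptprb* had 15.6 and 3.81 CPM. On chromosome 16, *Btla* and *Cd200* were 129.2 kb apart. Exons of 9 of the genes overlapped another gene above 10 CPM, 7 of them on the opposite strand, and the strand used in counting was not given in the sources used here. Counts of *Cd160*, *Fam13c*, *Fbxw4* and *Popdc2*, which are among these 9, are therefore uncertain, as are those of genes with close copies such as *Magea10*, *Olfr288*, *Naip1*, *Oas1f*, *Hnrnpa1* and *Serpinb1c*.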

How the data were processed

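Single mouse oocytes were sequenced in 4 libraries. The authors assigned reads to cells, trimmed them, mapped them with Tophat to the mm9 transcriptome and collapsed duplicates by UMI. They filtered cells by genes, transcripts and the ratio of ERCC spike-ins. The deposited values are raw UMI counts of 23201 genes in 223 cells. UMIs per cell ranged from 22279 to 3898137. No cell was assigned to a library, so a stage was 1 sample, and no test or p-value was computed. No doublet caller was run on the hand-picked cells.

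UMIs were summed by stage and scaled to CPM. A stage at 0 UMIs was counted as 3 UMIs in ratios. Intervals of ratios came from the exact binomial split of the 2 counts, at 95%. The genes and gene lists were chosen with earlier results of these data known, and the groups by role and by complex after their values were seen. Genes were named by rule as the 20 steepest, the 10 highest in GO3, the 5 highest and 5 lowest by ratio of GO3 to NGO, genes in a list, genes next to each limit, genes named by the study, and prefixes shared by at least 3 genes; genes of roles and complexes were named beyond it. Gene models came from GENCODE on NCBIM37, the mm9 assembly, which placed 230 of the 268 genes. RefSeq promoters on GRCm38.p6 matched 214 of the 268, by symbol or synonym. Alternatives were DESeq2 1.42.0 size factors, edgeR 4.0.16 TMM factors (both for scaling only), other weights of cells, and other limits. R 4.3.3 and Python 3.11.15 were used, the latter with scipy 1.17.1, numpy 2.4.6, matplotlib 3.10.9 and pandas 2.3.3. Chromatin accessibility and DNA methylation were not analysed here.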

Additional observations from a re-analysis of the deposited data

How the results depend on the processing

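The directions of the 3 median log2 ratios held under all 7 other scalings and weights of cells. That of FGO over GO3 chose the genes in these same cells, so its direction was given in advance. The other 2, of GO3 over GO2 and of GO3 over NGO, also use stages that entered the choice. The number of genes found by the rule was 268, and became 557 in cells thinned to 20000 UMIs, 458 with the median over cells, 634 at a 1.5-fold limit, 94 at 3-fold, 81 with a floor of 50 CPM and 1614 with no floor. Of the 268 genes, 199 were found in thinned cells and 226 with the median over cells, and 56.7% under all 7 scalings and weights. The median log2 ratio of FGO over GO3 was -1.38, and it was -1.67 in thinned cells, -1.70 as the mean over cells, -1.98 as the median over cells and -1.58 without the 10 deepest cells of each stage. That of GO3 over GO2 was -0.32, and -0.46 with DESeq2 size factors and -0.47 in thinned cells. That of GO3 over NGO was 2.70, and 3.58 with the median over cells. The count of genes at least 2-fold lower in GO3 than in NGO was 2, and it was 0 with DESeq2 size factors, 0 with TMM factors, 1 with 26 cells drawn from each stage and 6 in thinned cells. The count at least 2-fold higher was 241 and ranged from 213 to 248. The summed level in FGO was 6301 CPM, and it was 6545 with 26 cells, 6102 with DESeq2 size factors, 6274 with TMM factors, 5359 in thinned cells, 5357 as the mean over cells, 4500 (4499.97) as the median over cells and 5427 without the 10 deepest cells. The cause was not tested. With 1 pooled sample a stage, intervals cover counting error only and not the spread between mice or libraries.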
